A study of Homo sapiens with 4 samples.

Results

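The genes described here are 47 human genes of DNA replication and S phase, chosen by name from their known roles and grouped into 9 roles. All 47 are among the 60721 genes of the deposited count table, and all 47 passed the filter on low counts that left 16137 genes for testing. In a study of talin-1 and gene expression, RNA was sequenced from HS578T cells, an established line from a human breast carcinoma, and GFP was co-transfected in both groups. The control group, SCR, received a scrambled, non-targeting RNA, and the siTLN1 group an siRNA against TLN1, which encodes the integrin adaptor talin-1. The dose was 1.6 µM for either RNA, the cells were harvested 48 h later, and each group has 2 libraries described as biological replicates. Whether the siRNA was one sequence or a pool, and whether the replicates came from separate cultures, is not given in the sources used here, so the p values measure the spread between these 4 libraries, all from 1 cell line.

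Before a cell can copy its genome, the origin recognition complex, CDC6 and CDT1 load rings of MCM2 to MCM7 onto DNA in G1, and geminin later blocks reloading. At the start of S phase, CDC45 and the GINS complex join the ring to form the active helicase, after which polymerases, the sliding clamp PCNA and its loader, and enzymes that make deoxynucleotides carry synthesis forward. Many of these genes are switched on together by E2F transcription factors at the G1/S boundary, so their transcripts are widely used as readouts of proliferation.

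Total counts ranged from 31854322 to 46353297 per library. The raw counts of TLN1 were 27592 and 30425 for SCR against 1888 and 2104 for siTLN1, which left 5.55% of the scaled SCR level. All 8 mesenchymal markers checked were expressed, with a summed level of 37471 to 44288 CPM (counts scaled to library size, with TMM factors between libraries). Most of this sum came from FN1 (23553 to 32369 CPM). The 7 luminal or epithelial markers summed to 11.8 and 12.3 CPM in SCR and 13.8 and 16.3 CPM in siTLN1, most of it from GATA3 (9.75 to 13.8 CPM). The 6 markers of blood, endothelial and liver cells summed to 3.38 to 5.10 CPM, and CD3E and HBB had no count in any library. The 2 libraries of each group are called a and b here, after a number that recurs in the count columns of both groups and whose meaning is not stated.

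The promoters of these genes carry a shared sequence feature that the choice of members did not use. RefSeq promoters (GRCh38.p14, 250 bases before to 50 after each annotated start) were found for 42 of the 47 members, and GINS4, RPA2, MCM4, RPA3 and MCM5 had no entry. An E2F word (TTTCCCGC, TTTGGCGC, TTTCGCGC or TTTGCCGC, on either strand) was present in at least 1 promoter of 24 of these 42 members (57.1%), against 739 of 11365 tested genes with an entry (6.50%). CCAAT, the core of NF-Y sites, was present on either strand for 26 members (61.9%) against 43.1% of tested genes, and 13 members (31.0%) held both words in the same promoter against 2.57%. Counted by promoter, 25 of 57 member promoters held an E2F word, against 4.78% of 16490 promoters of tested genes and 3.31% of all 35116 promoters in the table. A match describes letters in a window and is not evidence of binding.

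The 4 stretches below belong to the 2 members that passed the test, TK1 and GINS1, and to the next 2 by p value that have a promoter entry, TYMS and MCM7. Each is read 5′ to 3′ on the strand of its gene, and capitals mark E2F words or CCAAT in either orientation.
TK1: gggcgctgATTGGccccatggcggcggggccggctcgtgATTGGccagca
GINS1: ctATTGGctagctttgttcgGCGCCAAAg
TYMS: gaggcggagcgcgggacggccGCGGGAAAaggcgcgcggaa
MCM7: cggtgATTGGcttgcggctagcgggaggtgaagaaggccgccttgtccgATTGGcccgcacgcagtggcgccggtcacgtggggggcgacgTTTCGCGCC
The TK1 stretch (chr17:78187088-78187137, minus strand) holds CCAAT in inverted form at both marked places and no E2F word. The GINS1 stretch (chr20:25407658-25407686, plus strand) holds an inverted CCAAT before the start and an E2F word just inside the transcript. The TYMS stretch (chr18:657593-657633, plus strand) holds 1 E2F word, and the MCM7 stretch (chr7:100101398-100101497, minus strand) holds 2 inverted CCAAT copies and an E2F word whose last base begins a CCAAT that runs past the start.

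The comparison of siTLN1 with SCR called a share of the replication genes close to that of all tested genes. Of the 47 members, 2 (4.26%) passed an adjusted p of 0.05 (edgeR, quasi-likelihood F test, Benjamini-Hochberg adjustment over all genes tested), against a background of 6.07% of all 16137 genes. GINS1 was the 1 member that rose, where 2.3% of all genes rose, and TK1 was the 1 member that fell, where 3.77% of all genes fell. Among the 9110 tested genes in the same range of SCR abundance as the members (9.34 to 524 CPM), 7.91% were called. The median log2 fold change of the members was 0.020, beside 0.0033 for all tested genes, with 25 members above 0 and 22 below. Their median size of change, regardless of sign, was 0.082 on the log2 scale, against 0.12 for those 9110 genes. In these bulk samples a different share of cells in S phase cannot be told apart from a different amount of RNA per cell.

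The 45 members that did not pass were bounded as follows. For each gene the fit gives a 95% interval of the log2 fold change, and for all 45 that interval lay within a change of 1.5-fold in either direction, a bound chosen after the data were seen. TK1 and GINS1 were the 2 members whose interval crossed the bound. The interval lay within it for 61.5% of all tested genes and for 90.1% of those in the members' range of abundance. Changes smaller than these intervals could not be resolved in this fit, which has 2 libraries per group and does not pair them. The summed level of all 47 members was 4591 and 4405 CPM in the SCR libraries and 4548 and 4413 CPM in the siTLN1 libraries, or 4498 ± 131 CPM (SD, n = 2) against 4481 ± 95.9 CPM (SD, n = 2). The groups overlapped in this sum, and in both groups library a was higher than library b. The members' median deviation from the mean of the 4 libraries showed the same order, at 0.020 in SCR library a and 0.031 in siTLN1 library a against −0.034 and −0.018 in the b libraries.

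**Figure D1:**
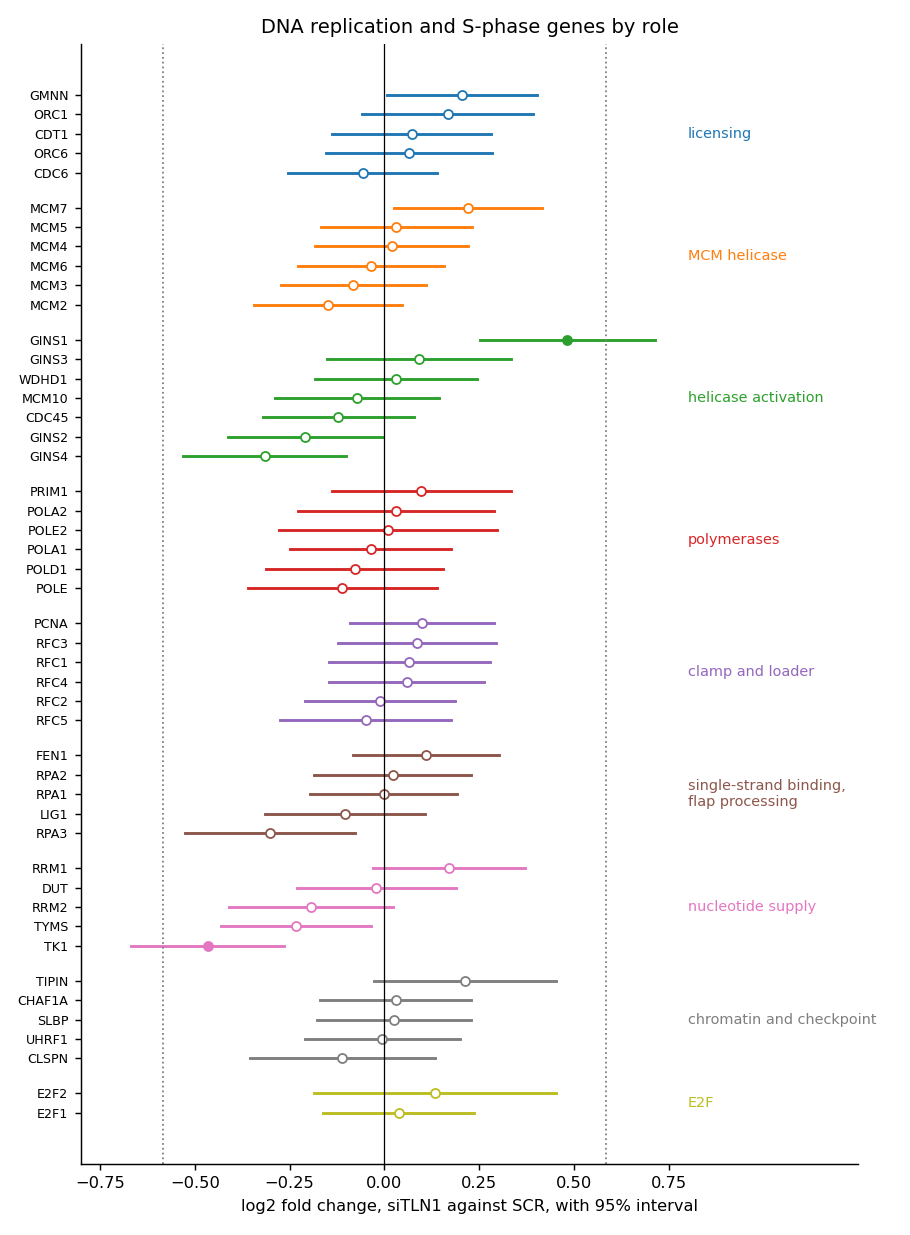
Log2 fold change of siTLN1 against SCR for each of the 47 members (horizontal axis) with its 95% interval, grouped by role. Filled points mark the 2 genes with an adjusted p under 0.05, and dotted lines mark a 1.5-fold change, which only the intervals of TK1 and GINS1 cross.

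The sign of many small differences depended on which libraries were kept. With each library left out in turn, 22 of the 47 members changed sign at least once, and a further 14 kept their sign while the log2 fold change moved by over 1.5 times. The 11 members that did neither were TK1, GINS1, GINS2, MCM7, TYMS, RPA3, GMNN, TIPIN, PCNA, MCM3 and CDC45. Leaving out a library unbalances a and b, so any difference between a and b that the groups share enters these fits. For E2F2, which changed sign, siTLN1 minus SCR on the log2 scale was 0.13 between the a libraries and 0.14 between the b libraries. For UHRF1, which also changed sign, these differences were 0.11 and −0.12.

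TK1 (ENSG00000167900.12; GRCh38, chromosome 17, 78174091 to 78187233, minus strand) encodes thymidine kinase 1, the cytosolic enzyme that salvages thymidine and is made mainly in S phase. Its level was 123 and 135 CPM in the SCR libraries and 90.1 and 97.3 CPM in the siTLN1 libraries. Both siTLN1 libraries were below both SCR libraries. The mean fell to 72.4% of SCR, the SCR mean being 129 ± 8.57 CPM (SD, n = 2) and the siTLN1 mean 93.7 ± 5.12 CPM (SD, n = 2). On the log2 scale this is −0.47 (standard error 0.095, 95% interval −0.67 to −0.26, edgeR adjusted p 0.00721). None of its exon bases is shared with another annotated gene. Without siTLN1 library a the log2 fold change was −0.41 and the adjusted p 0.125, in a fit where the lone siTLN1 library is assumed to vary as the SCR libraries do.

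GINS1 (ENSG00000101003.10; chromosome 20, 25407673 to 25452628, plus strand) encodes a subunit of the GINS complex of the replicative helicase. It had 49.1 and 40.2 CPM in the SCR libraries and 65.0 and 59.8 CPM in the siTLN1 libraries. Every siTLN1 value was above every SCR value. The mean rose to 140% of SCR, the SCR mean being 44.7 ± 6.30 CPM (SD, n = 2) and the siTLN1 mean 62.4 ± 3.63 CPM (SD, n = 2). On the log2 scale this is 0.48 (standard error 0.11, 95% interval 0.25 to 0.71, edgeR adjusted p 0.0141). Its exons overlap no other annotated gene. The call was lost without SCR library b (log2 fold change 0.35, adjusted p 0.0968) and without siTLN1 library a (0.42, adjusted p 0.156).

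A further 6 members had an unadjusted p under 0.05 that did not survive adjustment, so that 8 of 47 members were under this limit (17.0%) against 19.8% of all genes and 22.9% of those in the same range of abundance. GINS4, RPA3, TYMS and GINS2 had lower means in siTLN1, and MCM7 and GMNN higher ones. None of the 6 is counted as changed. All 6 passed when a term for replicate number was added (limma-trend, adjusted p 0.00012 to 0.019). No label states that equal numbers share a preparation, and 22.6% of all genes passed in that fit. The libraries of the groups did not overlap for 18 members (8 higher and 10 lower in siTLN1), which is 38.3% of them, against 48.4% of all tested genes and 51.4% of those in that range.

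**Figure D2:**
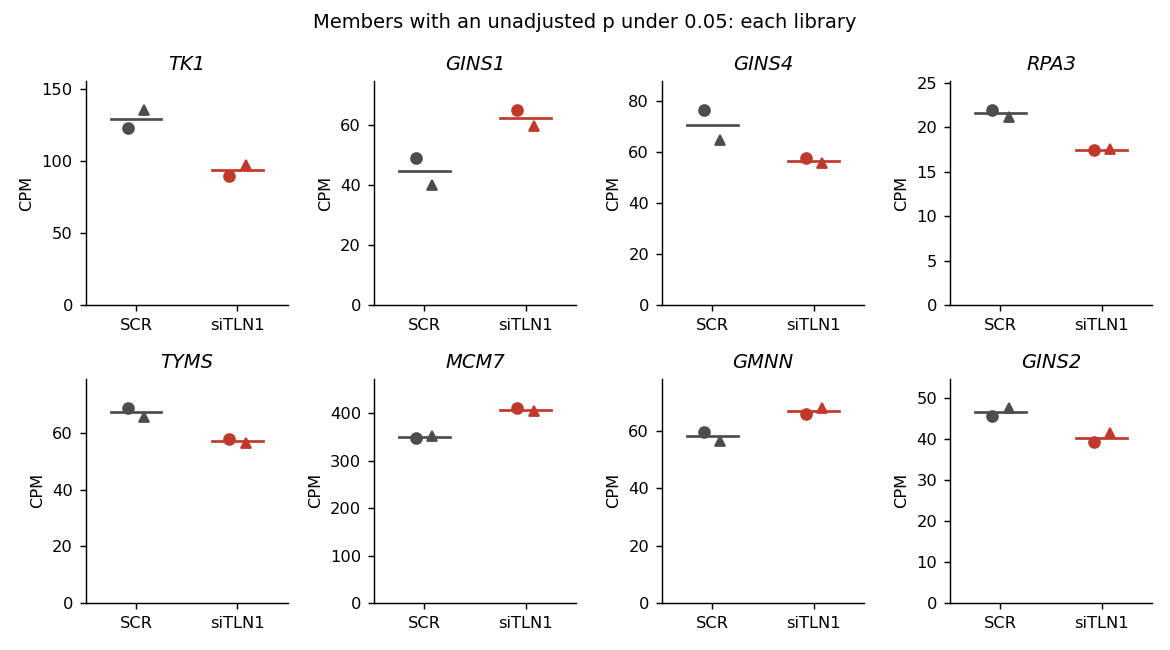
Abundance in CPM (vertical axes, from 0) of the 8 members with an unadjusted p under 0.05, with 1 point per library (circles for library a, triangles for library b) and a bar at the mean of each group. The groups do not overlap in any of the 8 panels, which the choice by p value favours, nor in 48.4% of all tested genes. TK1 (123 and 135 against 90.1 and 97.3 CPM) and GINS1 are the 2 that passed adjustment.

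Among the licensing genes, which load the helicase at origins, none of 5 passed the test. With 6.07% of all tested genes called, no call is a common outcome for a list this short, here and in the other roles. GMNN, which encodes geminin, the inhibitor of CDT1, was at 59.7 and 56.7 CPM in SCR and 66.0 and 68.1 CPM in siTLN1. Its groups did not overlap, but its log2 fold change of 0.20 (95% interval 0.0063 to 0.40) had an edgeR adjusted p of 0.236. CDT1 itself, the loading factor that geminin binds, had a log2 fold change of 0.072, with 40.4 and 44.5 CPM in SCR and 43.2 and 46.1 CPM in siTLN1. Without SCR library a its log2 fold change was 0.0057, and without SCR library b 0.14. ORC1, an ATPase subunit of the origin recognition complex, had 36.8 and 32.5 CPM in SCR and 41.5 and 36.3 CPM in siTLN1, overlapping groups whose log2 fold change was 0.17 (adjusted p 0.423) and ran from 0.070 to 0.26 with 1 library left out. The value was 0.065 for ORC6, another subunit, and −0.057 for CDC6, which joins the complex to recruit the MCM ring.

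None of the 6 MCM helicase genes passed either, and their log2 fold changes ran from −0.15 for MCM2 to 0.22 for MCM7. MCM7 was at 348 and 352 CPM in SCR and at 412 and 405 CPM in siTLN1. These groups lay well apart relative to the spread within each, at 350 ± 2.99 CPM (SD, n = 2) and 408 ± 4.97 CPM (SD, n = 2), yet the model, which shares the spread across genes, gave an adjusted p of 0.187. MCM2 had 136 and 130 CPM in SCR and 125 and 116 CPM in siTLN1 (adjusted p 0.409). MCM3 had 202 and 204 CPM in SCR and 194 and 189 CPM in siTLN1, a log2 fold change of −0.082 (adjusted p 0.689). MCM4, MCM5 and MCM6 had 0.020, 0.032 and −0.036, and their groups overlapped. The MCM proteins form a ring in equal parts, and their transcripts ranged in SCR from 23.4 CPM per kb of exon for MCM6 to 79.8 for MCM7. Exon length here is the union of all annotated exons of a gene. The libraries came from a stranded kit, but the counting used no strand option, and exons of genes on the other strand cover 23.6% of MCM2 exon bases and 8.94% of those of MCM7, so both levels are uncertain by an amount that was not measured.

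The helicase activation genes spanned the widest range of log2 fold change of the 9 roles, from −0.32 to 0.48, and both ends were subunits of GINS. This role is also the largest, with 7 genes, and a range tends to widen with the number of genes. GINS1 rose, while GINS4 was at 76.4 and 64.8 CPM in SCR and 57.5 and 55.9 CPM in siTLN1. The log2 fold change of GINS4 was −0.32 (95% interval −0.53 to −0.10) with an edgeR adjusted p of 0.0780. Without SCR library b it was −0.43 and passed (adjusted p 0.0151), whereas without SCR library a it was −0.19 (adjusted p 0.430). Without siTLN1 library a or b it was −0.34 and −0.29 (adjusted p 0.302 and 0.264). With each library's trend with gene length removed it was −0.32 and also passed (adjusted p 0.0407). GINS2 had 45.6 and 47.5 CPM in SCR and 39.3 and 41.3 CPM in siTLN1, a log2 fold change of −0.21 (adjusted p 0.242), and GINS3 had a log2 fold change of 0.091. Exons on the other strand cover 23.4% of GINS4 exon bases, 10.9% of those of GINS3 and 0.218% of those of GINS2.

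Ratios between subunits, which do not depend on how libraries are scaled, were then formed for pairs picked after their values were seen, so they are a description. For 1 ratio in this design, no exact permutation test could reach a p below 0.333. Per kb of exon, the ratio of GINS1 to GINS4 was 0.848 and 0.818 in SCR against 1.49 and 1.41 in siTLN1. By this measure the ratio went from below 1 in SCR to above 1 in siTLN1. Which side of 1 it takes depends on the exon lengths used and on GINS4 counts made without a strand option. The ratio of GINS1 to GINS2 was 0.839 and 0.659 in SCR and 1.29 and 1.13 in siTLN1, and that of GINS1 to GINS3 was 3.29 and 3.07 against 4.15 and 4.22. The ratio of MCM7 to MCM2 was 2.74 and 2.90 in SCR and 3.55 and 3.75 in siTLN1. Of the remaining pairs formed, CDT1 to GMNN overlapped between groups (0.607 and 0.705 against 0.587 and 0.608), and TK1 to TYMS was 2.35 and 2.70 against 2.04 and 2.26.

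The other activation genes are CDC45, the third part of the active helicase, MCM10, which helps to activate it, and WDHD1, which links it to polymerase alpha. CDC45 had 55.6 and 58.7 CPM in SCR and 53.3 and 51.8 CPM in siTLN1 (log2 fold change −0.12, edgeR adjusted p 0.532). The log2 fold changes of MCM10 and WDHD1 were −0.072 and 0.031, and none of these genes passed.

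**Figure D3:**
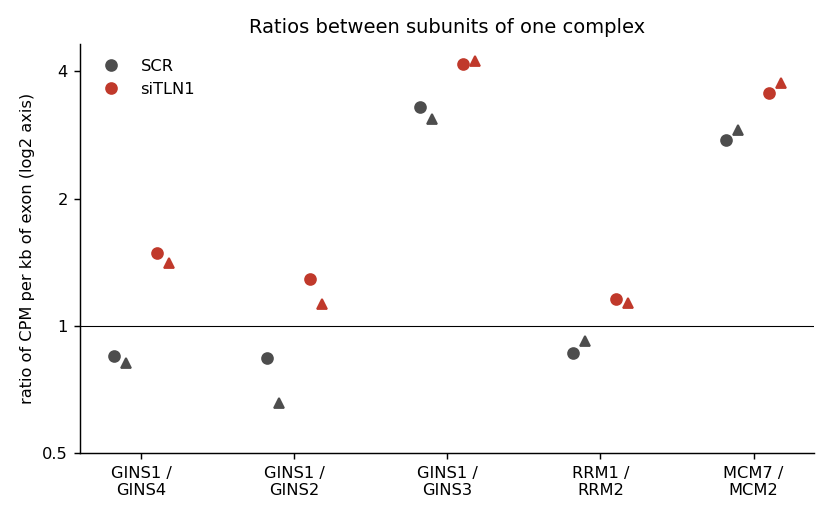
Ratio of CPM per kb of exon between 2 subunits of a complex (vertical axis, log2 scale) in each library, with SCR in grey, siTLN1 in red, library a as circles and library b as triangles. Every ratio plotted is higher in both siTLN1 libraries than in both SCR libraries, and GINS1 to GINS4 goes from 0.848 and 0.818 to 1.49 and 1.41. The pairs were picked after their values were seen, which favours a shared direction. Of the pairs formed but not plotted, CDT1 to GMNN overlapped between groups and TK1 to TYMS was lower in siTLN1.

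The genes of DNA synthesis itself differed little between the groups. None of 6 polymerase genes passed, and their log2 fold changes lay between −0.11 and 0.098. POLE, the catalytic subunit of the leading-strand polymerase, had −0.11, with 80.8 and 71.1 CPM in SCR and 78.6 and 62.2 CPM in siTLN1, groups that overlap. POLD1, the catalytic subunit of polymerase delta, had 40.0 and 48.4 CPM in SCR and 44.3 and 39.5 CPM in siTLN1, or −0.078 on the log2 scale, and without SCR library b the value was 0.066. PRIM1, the primase catalytic subunit, had 16.4 and 16.3 CPM in SCR and 18.3 and 16.7 CPM in siTLN1 (log2 fold change 0.098), and POLA1, POLA2 and POLE2 (subunits of polymerases alpha and epsilon) had −0.036, 0.030 and 0.010. POLA2 was the least abundant member per length in SCR, at 2.00 CPM per kb, and another gene of the same strand covers 36.1% of its exon bases. Genes of the same strand also cover 17.5% of PRIM1 exon bases and 8.63% of those of POLD1.

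PCNA, the sliding clamp, was the most abundant member per length in SCR, at 119 CPM per kb of exon. It had 166 and 169 CPM in SCR and 176 and 182 CPM in siTLN1. The groups did not overlap, but for the log2 fold change of 0.099 the 95% interval was −0.092 to 0.29 and the edgeR adjusted p 0.609. RFC1 to RFC5 load the clamp. RFC3 had 46.7 and 42.3 CPM in SCR and 46.1 and 48.3 CPM in siTLN1 (log2 fold change 0.087), and RFC1 had 105 and 90.3 CPM in SCR and 107 and 97.6 CPM in siTLN1 (0.066). RFC2, RFC4 and RFC5 had log2 fold changes of −0.011, 0.060 and −0.049. None of the 6 clamp and loader genes passed.

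Of the 5 genes of single-strand binding and flap processing, none passed. RPA3, the smallest subunit of the trimer that coats single-stranded DNA, had 21.9 and 21.2 CPM in SCR and 17.4 and 17.5 CPM in siTLN1. Its groups were apart (log2 fold change −0.30, 95% interval −0.53 to −0.078, edgeR adjusted p 0.110). The larger subunits RPA1 and RPA2 had log2 fold changes of −0.0020 and 0.022, and their groups overlapped. FEN1, which trims Okazaki fragment flaps, had 136 and 133 CPM in SCR and 149 and 141 CPM in siTLN1 (log2 fold change 0.11). LIG1, which joins the fragments, had 44.5 and 47.7 CPM in SCR and 45.1 and 40.8 CPM in siTLN1 (−0.10).

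Nucleotide supply had the lowest median of the 9 roles, at −0.19 over 5 genes, of which TK1 was the only one to pass. TYMS, thymidylate synthase, makes dTMP by the route parallel to TK1. It had 68.8 and 65.8 CPM in SCR and 58.0 and 56.6 CPM in siTLN1, or −0.23 on the log2 scale (95% interval −0.43 to −0.035, edgeR adjusted p 0.168). Because ENOSF1 and TYMSOS, on the opposite strand, share 47.5% of its exon bases, its count is uncertain. Ribonucleotide reductase, which makes deoxynucleotides, consists of a large subunit, RRM1, and a small one, RRM2. RRM1 had 226 and 206 CPM in SCR and 253 and 233 CPM in siTLN1 (adjusted p 0.344), and RRM2 had 566 and 483 CPM in SCR and 472 and 445 CPM in siTLN1 (adjusted p 0.317). Their log2 fold changes were 0.17 and −0.19. With 1 library left out, that of RRM1 ran from 0.11 to 0.24 and that of RRM2 from −0.30 to −0.073. Omitting SCR library b gave the low end for both genes, and omitting SCR library a gave the high end. The ratio of RRM1 to RRM2 per kb of exon was 0.863 and 0.923 in SCR and 1.16 and 1.13 in siTLN1, another pair picked after seeing the values. DUT, which removes dUTP, had a log2 fold change of −0.021.

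The last 2 roles held no gene that passed. TIPIN, which with TIMELESS stabilises the fork, was at 13.1 and 13.6 CPM in SCR and 15.2 and 15.7 CPM in siTLN1, or 0.21 on the log2 scale (95% interval −0.026 to 0.45, edgeR adjusted p 0.318). The pseudogene RPL9P25 shares 21.1% of its exon bases. CLSPN, the checkpoint mediator claspin, had 87.4 and 71.4 CPM in SCR and 79.6 and 67.6 CPM in siTLN1, a log2 fold change of −0.11 that was 0.043 without SCR library a. CHAF1A, a histone chaperone subunit, had 79.8 and 76.7 CPM in SCR and 83.3 and 76.6 CPM in siTLN1 (0.030), SLBP, which binds histone mRNA, had 0.027, and UHRF1, which maintains DNA methylation, had −0.0048. The transcription factor genes E2F1 and E2F2 had log2 fold changes of 0.038 and 0.13 (adjusted p 0.885 and 0.692). E2F1 was at 56.0 and 53.9 CPM in SCR and 57.1 and 55.7 CPM in siTLN1, and E2F2 at 15.7 and 12.2 against 17.2 and 13.5 CPM, both with overlapping groups. The 24 members with an E2F word in a promoter had a median log2 fold change of 0.0027, with 1 changed gene. The 18 with a promoter entry but no such word had a median of 0.028, also with 1 changed gene. Of all tested genes 6.07% changed, so both counts are near the background.

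Other genes of replication, from a list drawn up by known function, were counted in the same fit. Of 49, all tested, 3 passed (6.12%, against 6.07% of all genes). All 3 fell, where 62.1% of all called genes fell, and 27 of the 49 were above 0. CCNE1, cyclin E1, which activates CDK2 at the G1/S boundary, went from 13.0 to 7.81 CPM, a log2 fold change of −0.73 (edgeR adjusted p 0.00304). ORC2, a core subunit of the origin recognition complex, went from 33.9 to 24.3 CPM (−0.48, adjusted p 0.00868). DONSON, which helps to assemble the active helicase, went from 46.0 to 36.0 CPM (−0.35, adjusted p 0.0416). All 3 calls were lost without siTLN1 library a, a fit that called 347 genes in all. The log2 fold changes there were −0.60, −0.43 and −0.34 (adjusted p 0.0679, 0.146 and 0.288). DONSON also lost its call without SCR library a (−0.29, adjusted p 0.163), without siTLN1 library b (−0.36, adjusted p 0.146) and when low counts were not filtered (−0.34, adjusted p 0.102). SON on the opposite strand shares 8.74% of its exon bases. The median of the 49 was 0.018.

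Genes of the later cell cycle gave a point of comparison. Of 30 mitotic genes, all tested, 1 passed (3.33%, against 6.07% of all genes). Of the 30, 20 were above 0, against 8170 of all 16137 genes. The 1 was KIF20A, a kinesin of cytokinesis, which fell from 272 to 208 CPM (log2 fold change −0.38, edgeR adjusted p 0.0247). It lost its call when low counts were not filtered (−0.37, adjusted p 0.0577), without SCR library a (−0.29, adjusted p 0.170), without siTLN1 library a (−0.35, adjusted p 0.223) and without siTLN1 library b (−0.42, adjusted p 0.0532). The mitotic median was 0.019, beside 0.020 for the 47 replication members, and the difference between the lists was not tested.

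**Figure D4:**
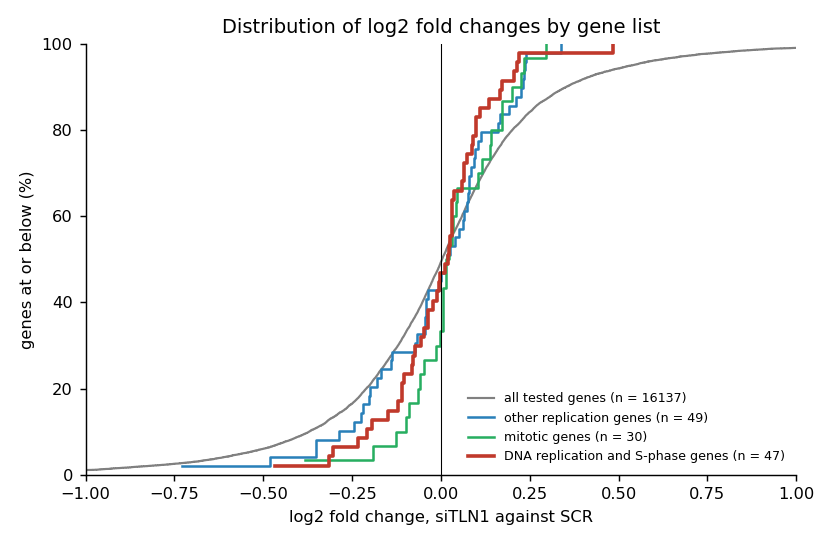
Cumulative share of genes in percent (vertical axis) at or below each log2 fold change (horizontal axis, cropped at ±1) for the 47 members, the 49 other replication genes, the 30 mitotic genes and all 16137 tested genes. All 4 curves cross 50% close to 0, with medians of 0.020, 0.018, 0.019 and 0.0033.

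A sequence feature of the transcripts was described as well. The word GACAACA went with lower fold changes in an earlier analysis of these data, so it supports nothing here. In the protein-coding transcript with the longest coding sequence of each gene (GENCODE 29), it lay in the 3′ UTR of 1 of the 47 members, GINS4 (2.13%), against 7.32% of 12863 tested protein-coding genes other than TLN1. It lay in the coding sequence only of 9 members, TK1, GINS2, GINS3, MCM2, MCM5, MCM6, POLE, LIG1 and CLSPN (19.1%, against 14.6%). Another annotated transcript of TK1 (1 of 5) holds it in the 3′ UTR. TK1, GINS2 and MCM2 had the lowest log2 fold changes of the 9, while GINS3 and MCM5 were above 0 (0.091 and 0.032). The places in TK1, the member that fell, and in GINS2 and MCM2 are shown with 10 bases on either side and the word in capitals.
TK1: tgccgggccgGACAACAaagagaactg
GINS2: tcatgcttcaGACAACAtcccgaaggc
MCM2, first copy: ggccaagaagGACAACAaggttgctgt
MCM2, second copy: attccggcgtGACAACAatgagctgtt
Of the 10 members with the word, 8 had a log2 fold change below 0, with a median of −0.11. Of the 37 without it, 14 were below 0 and 23 above, with a median of 0.030. Among tested protein-coding genes the medians were −0.098 with the word in the 3′ UTR (16.8% called lower), −0.024 with it in the coding sequence only (6.19%) and 0.018 with neither (2.89%). GINS1 lacks the word. Whether the word has a part in the fall of TK1, or in the lower mean of GINS4, which did not pass, was not tested.

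**Figure D5:**
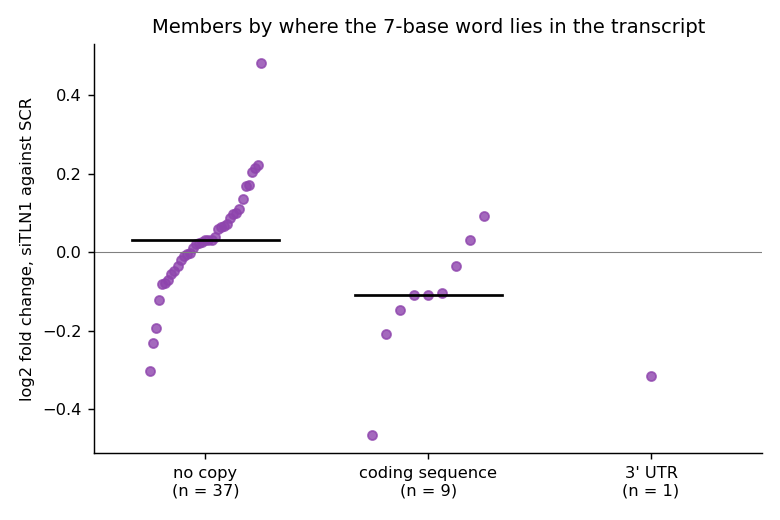
Log2 fold change of each member (vertical axis) by whether the word lies in neither region (n = 37), in the coding sequence only (n = 9) or in the 3′ UTR (n = 1) of its chosen transcript, with bars at the medians. The lowest point is TK1 at −0.47 in the coding group, and the highest is GINS1 at 0.48 among those without a copy.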

How the data were processed

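The deposited table holds raw fragment counts, which the authors obtained with featureCounts (Subread 2.0.0, paired ends, no strand option, GENCODE 33 on GRCh38), per the file headers, next to an exon length in bases for each gene. STAR 2.7.9a and edgeR 3.34.1 are named in the submitters' processing notes. The deposited log2 CPM table covers 16137 genes, and 100% of its values equal TMM-scaled log2 CPM recomputed from the counts to 6 decimals, sorted within groups. Count columns were mapped to groups only, and 0 columns were left unmapped.

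Genes passing filterByExpr (minimum count 10, minimum total 15) were scaled by TMM and compared with edgeR 4.0.16 (R 4.3.3; glmQLFit, robust, and glmQLFTest, group as the only term), with Benjamini-Hochberg adjustment over all tested genes. Standard errors were taken as the size of the log2 fold change over the square root of F, and intervals from the t distribution with the total degrees of freedom of the fit. The procedure was tested on simulated data. Alternatives included DESeq2 1.42.0 and limma 3.58.1. Gene IDs were matched to symbols without version numbers.

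Members and lists were chosen with earlier results of these data known. Every member was named, and values in full were given for members past the threshold and up to 3 per role by p, and for up to 5 changed genes of each other list. No set test was run. Depth counts cover counting error only, and with 2 libraries per group the spread between libraries limits precision.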

Additional observations from a re-analysis of the deposited data

How the results depend on the processing

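The 2 changed members, TK1 and GINS1, were the same 2 with DESeq2, limma-voom and limma-trend on the deposited values, under RLE or total-count scaling, without the low-count filter and with a minimum mean of 10 counts. With the length trend removed 3 members changed (GINS4 added, so 2 lower), and 568 genes were higher overall. With no filter 389 genes were lower and 0 mitotic genes changed by edgeR; more genes enter that adjustment. DESeq2 gave no adjusted p for 3442 genes.

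Each library left out in turn gave 347 to 1116 changed genes (103 to 503 higher, 244 to 613 lower), against 980 with all 4. The changed members numbered 0 to 2 (0 to 1 higher, 0 to 2 lower), and the members' median ran from −0.018 to 0.018. The other replication genes changed numbered 0 to 3 and mitotic genes 0 to 1. Leaving out siTLN1 library a gave the low end of each of these counts except the members called higher, which were also 0 without SCR library b. In these fits 22 of the 47 members changed sign in at least 1, none of them called with all 4 libraries, 14 kept their sign but moved by over 1.5 times, and 11 did neither. Among the members with values given in full, those that changed sign ranged from −0.289 to 0.053 (POLE), −0.21 to 0.066 (POLD1), −0.25 to 0.043 (CLSPN), −0.040 to 0.18 (RFC1), −0.031 to 0.093 (CHAF1A), −0.047 to 0.33 (E2F2) and −0.020 to 0.086 (POLA2).

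As a pairing check, the replicate 1 minus 2 difference in SCR was set against that in siTLN1, gene by gene, with r = 0.19 (0.53 for genes averaging 5 CPM or more), but no label states a shared preparation, and 2 pairs are too few to establish one. With the replicate block, limma-trend on the deposited values gave 3645 changed genes (1709 higher, 1936 lower; 22.6% of those tested) and 10 changed members (21.3%; 4 higher, GINS1, GMNN, MCM7 and RRM1, and 6 lower, TK1, GINS2, GINS4, RPA3, RRM2 and TYMS). With the length trend removed as well the counts were 3655, 1721 and 1934, with the same 10 members, 16 other replication genes and 8 mitotic genes. The block alone gave 15 and 7 of these. A fit added after seeing the data, edgeR with the number in the count headers as a replicate block, gave 3709 (1733 and 1976), the same 10 members, 16 and 7. The header numbers gave the same r of 0.19, so they pair the same libraries as the replicate numbers. This fit is therefore not a separate grouping.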
